A study of Mus musculus with 18 samples.

Results

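The genes described here control the G1 phase of the cell cycle: 4 inhibitors of cyclin-dependent kinases (Cdkn1a, Cdkn1b, Cdkn2b and Cdkn2c), the D cyclins Ccnd1, Ccnd2 and Ccnd3, and the stress genes Gadd45a, Gadd45b and Gadd45g. They were chosen by gene symbol, as all probe sets whose single symbol in the array annotation was one of these names. These 10 genes are among 18194 that carried a single symbol on the array and among 13679 that were bright enough to be tested. All 10 were tested, and of their 24 probe sets 22 were. The members had to pass no threshold on their response. The genes, and the lists used below, were however chosen with earlier results of these data known.

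In G1, a cell is driven towards DNA replication by D cyclins, which bind and activate CDK4 and CDK6, so that the retinoblastoma family releases the E2F factors that switch on S-phase genes. Cdkn2b (p15) and Cdkn2c (p18) belong to the INK4 family and bind CDK4 and CDK6, whereas Cdkn1a (p21) and Cdkn1b (p27) bind complexes of cyclins with CDKs, CDK2 among them. The Gadd45 proteins are small acidic proteins that are induced by growth arrest and DNA damage and that can activate the kinase MTK1 (Map3k4) upstream of p38 and JNK. TGF-β is best known for arresting epithelial cells in G1, in part through p15 and p21, while fibroblasts respond to it with a matrix and wound programme.

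The cells were primary mouse embryonic fibroblasts from 3 wild-type embryos and 3 embryos labelled NFI-C knock out, taken at 14 days after removal of head and liver. NFI-C (Nfic) is a transcription factor of the nuclear factor I family. Cells of every group had first been held for hours in serum-free DMEM with AlbuMAX II and an insulin, transferrin and selenium supplement. They were then left untreated or given TGF-β1 at 12.5 ng/ml for 1 h or 10 h. This gave 6 groups of 3 arrays, with each embryo represented in all 3 conditions of its genotype. The labels mention triplicate cultures but not whether they were pooled. An untreated control for the 10 h time point is not analysed here, so TGF-β1 and time in the medium cannot be told apart at 10 h. No mock-handled group is among the 6 groups either, so at 1 h TGF-β1 and the handling at its addition cannot be told apart.

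Each value is a log2 expression level from RMA, a method that subtracts background, normalises the arrays to each other and sums up the probes of a set. Array medians lay between 4.74 and 4.81, and arrays of a group correlated at 0.987 to 0.995. The array does not give counts, and the number of arrays limits the precision: the 95% interval of a difference between groups had a median width of 0.27 log2 units on each side. No lower level of Nfic was detected in the labelled knock-out cells. Its brightest probe set had group means of 10.45, 10.58 and 10.23 in wild-type cells and 10.35, 10.56 and 10.14 in labelled knock-out cells (untreated, 1 h and 10 h), a difference of the embryo means of -0.07 ± 0.11 (SE, limma adjusted p = 0.984). On each of its 4 dimmer probe sets the arrays of the genotypes overlapped as well, although the labelled knock-out mean of one of them was lower in all 3 conditions. The deleted stretch of Nfic is not named in the labels, and a probe set outside it checks nothing, and the genotype is given below as labelled.

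All 10 fibroblast markers examined, collagens and Pdgfra among them, lay above the detection filter on 18 of 18 arrays. Their mean per array was 11.83 to 12.04 in untreated wild-type cells and 11.33 to 11.54 at 10 h, and 11.51 to 11.84 and 11.23 to 11.51 in labelled knock-out cells. That mean moved mainly through Pdgfra (8.98 to 6.50 in wild-type cells), Lum (9.16 to 7.82) and Dcn (9.63 to 9.01), while Col1a2 stayed at 14.08, Vim at 13.80, Fn1 went from 13.93 to 14.00 and Pdgfrb from 11.45 to 11.73. All 10 macrophage markers, Csf1r and Lyz2 among them, were above the filter on every array too. Their mean per array was highest in embryo 1 of each genotype. It ran from 10.28 to 10.49 in wild-type embryo 1 and from 8.37 to 9.07 in embryos 2 and 3. In labelled knock-out cells it ran from 9.66 to 9.89 in embryo 1 and from 8.07 to 8.63 in embryos 2 and 3. Wild-type embryo 2 went from 9.06 untreated to 8.37 at 10 h, and wild-type embryo 3 from 8.87 to 9.02. Of 5 endothelial markers Kdr was above the filter on 18 arrays and Pecam1, Tek and Tie1 on 0, and of 4 muscle markers Des and Actc1 on 18 and Myod1 on 0. Of 6 epithelial markers Epcam, Krt18 and Krt5 were above it on 18 arrays, as were the 2 neural markers Sox10 and Tubb3. The mean per array was 3.89 to 4.29 over the endothelial, 4.32 to 4.95 over the epithelial, 4.82 to 5.33 over the muscle and 6.19 to 6.79 over the neural list, close to the filter of 4.16 to 4.25 for the first. The part of these other markers in the results below was not tested, and fewer cells of a type cannot be told apart from less RNA per cell.

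The 3 Gadd45 genes were the members with the largest rises, and their promoters are shown because they are the sequences before the genes that responded at 1 h or rose at 10 h in both genotypes. The 250 bases before each start are taken from RefSeq (assembly GRCm38.p6) and written 5′ to 3′ on the strand of the gene. Of the 10 genes 8 had an entry in that table, and Ccnd1 and Ccnd2 are named only. Gadd45a lies on the minus strand, chr6:67037408-67037657, Gadd45b on the plus strand, chr10:80929841-80930090, and Gadd45g on the plus strand, chr13:51846425-51846674. Capitals mark, on either strand, the SMAD element CAGAC, the nuclear factor I core TTGGC, the Sp1 box GGGCGG, the E-box CACGTG and the AP-1 site TGAGTCA.
Gadd45a: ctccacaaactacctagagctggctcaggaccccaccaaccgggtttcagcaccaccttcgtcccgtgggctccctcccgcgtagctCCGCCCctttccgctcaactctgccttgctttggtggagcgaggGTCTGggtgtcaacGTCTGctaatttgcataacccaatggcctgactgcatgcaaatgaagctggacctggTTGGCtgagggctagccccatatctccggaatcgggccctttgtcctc
Gadd45b: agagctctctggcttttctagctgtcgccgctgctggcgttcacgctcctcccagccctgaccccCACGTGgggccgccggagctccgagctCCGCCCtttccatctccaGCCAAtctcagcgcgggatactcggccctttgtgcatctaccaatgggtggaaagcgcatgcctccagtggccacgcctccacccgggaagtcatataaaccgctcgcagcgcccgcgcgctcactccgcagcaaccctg
Gadd45g: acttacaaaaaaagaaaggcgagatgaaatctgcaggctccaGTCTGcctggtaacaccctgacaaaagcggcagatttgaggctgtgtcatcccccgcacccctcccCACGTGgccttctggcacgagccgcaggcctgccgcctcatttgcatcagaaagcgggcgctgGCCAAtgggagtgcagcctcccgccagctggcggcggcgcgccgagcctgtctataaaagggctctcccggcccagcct

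The Gadd45a promoter held CAGAC at 119 to 115 and at 105 to 101 bases before the start, both on the opposite strand, and Gadd45g held it once, at 208 to 204. Gadd45b, the gene with the largest rise at 1 h, had no CAGAC in this window. Both Gadd45b and Gadd45g carried the E-box CACGTG, at 185 to 180 and 142 to 137 bases before the start, and Gadd45a did not. TTGGC occurred once in each of the 3, and TGAGTCA in 0 of 3. No marked motif overlapped another. Among 32851 RefSeq promoters cut the same way, CAGAC was present in 42.2%, TTGGC in 41.5%, GGGCGG in 32.7%, CACGTG in 6.02% and TGAGTCA in 4.46%, so the first 3 are common in any promoter. These matches describe letters and are no evidence of binding.

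After 1 h of TGF-β1, Gadd45b and Gadd45g rose in both genotypes and the other 8 genes did not pass the test. Gadd45b rose 3.79-fold in wild-type and 3.74-fold in labelled knock-out cells, and Gadd45g 2.93-fold and 2.55-fold. A gene passed when its limma p, adjusted by Benjamini-Hochberg over the 13679 genes, was under 0.05. Of all tested genes 0.504% were higher and 0.0804% lower by this rule in wild-type cells, and 0.417% and 0.0731% in labelled knock-out cells. Against this, 2 of 10 members were higher and 0 lower in each genotype. Here and below such counts describe the members and are no test of enrichment, since members were chosen with earlier results known. The 1 h and the 10 h response of a genotype share their untreated arrays, so the values of a gene at both times are given side by side and are not independent.

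Gadd45b, an inducible member of the family that SMAD factors are known to activate, was at 8.78, 8.83 and 9.29 in untreated wild-type embryos 1, 2 and 3. At 1 h these embryos were at 10.68, 10.83 and 11.14, and at 10 h at 10.13, 10.84 and 10.00. In labelled knock-out embryos it was at 9.36, 8.96 and 8.81 untreated, 11.06, 11.10 and 10.69 at 1 h, and 10.77, 10.30 and 10.42 at 10 h. Every treated array lay above every untreated array of its genotype. The 1 h difference was 1.92 ± 0.22 on the log2 scale in wild-type cells (SE, limma adjusted p = 0.000202) and 1.90 ± 0.22 in labelled knock-out cells (0.000201). These were the 11th and 6th largest rises among 13679 genes. At 10 h the difference from untreated was 1.36 ± 0.22 (0.00022) and 1.45 ± 0.22 (0.000106). The wild-type 10 h arrays were spread from 10.00 to 10.84.

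Gadd45g, the third member of the family, followed the same course. It was at 9.79, 9.53 and 9.85 in untreated wild-type embryos, at 11.38, 11.11 and 11.34 at 1 h and at 10.84, 10.80 and 10.71 at 10 h. The labelled knock-out embryos were at 9.93, 9.73 and 9.86 untreated, 11.15, 11.32 and 11.09 at 1 h and 10.39, 11.01 and 10.64 at 10 h. The 3 conditions were separated in both genotypes, with 1 h highest and 10 h between. The log2 difference at 1 h was 1.55 ± 0.14 in wild-type cells (limma adjusted p = 7.65e-06) and 1.35 ± 0.14 in labelled knock-out cells (4.39e-05). At 10 h it was 1.06 ± 0.14 (2.55e-05) and 0.84 ± 0.14 (0.000184).

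Gadd45a, the p53-responsive member of the family, passed only at 10 h. In untreated wild-type embryos it was at 8.66, 8.92 and 8.70, at 1 h at 8.77, 9.10 and 8.76, and at 10 h at 9.81, 9.96 and 9.87. Values in labelled knock-out embryos were 8.33, 9.11 and 8.29 untreated, 8.74, 9.36 and 8.75 at 1 h, and 10.01, 9.88 and 9.87 at 10 h. The untreated and 1 h arrays overlapped in both genotypes, and embryo 2 was the highest of its genotype at both of these times. Each embryo was higher at 1 h than untreated, by 0.10, 0.18 and 0.06 in wild-type and 0.40, 0.24 and 0.46 in labelled knock-out cells. All 10 h arrays lay above the untreated and 1 h arrays. The 1 h difference was 0.11 ± 0.20 in wild-type cells and 0.37 ± 0.20 in labelled knock-out cells, with a limma adjusted p of 1.00 for the latter. The 10 h difference was 1.12 ± 0.20 in wild-type cells, a 2.17-fold rise (0.000404), and 1.34 ± 0.20 in labelled knock-out cells, a 2.54-fold rise (7.27e-05).

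**Figure D1:**
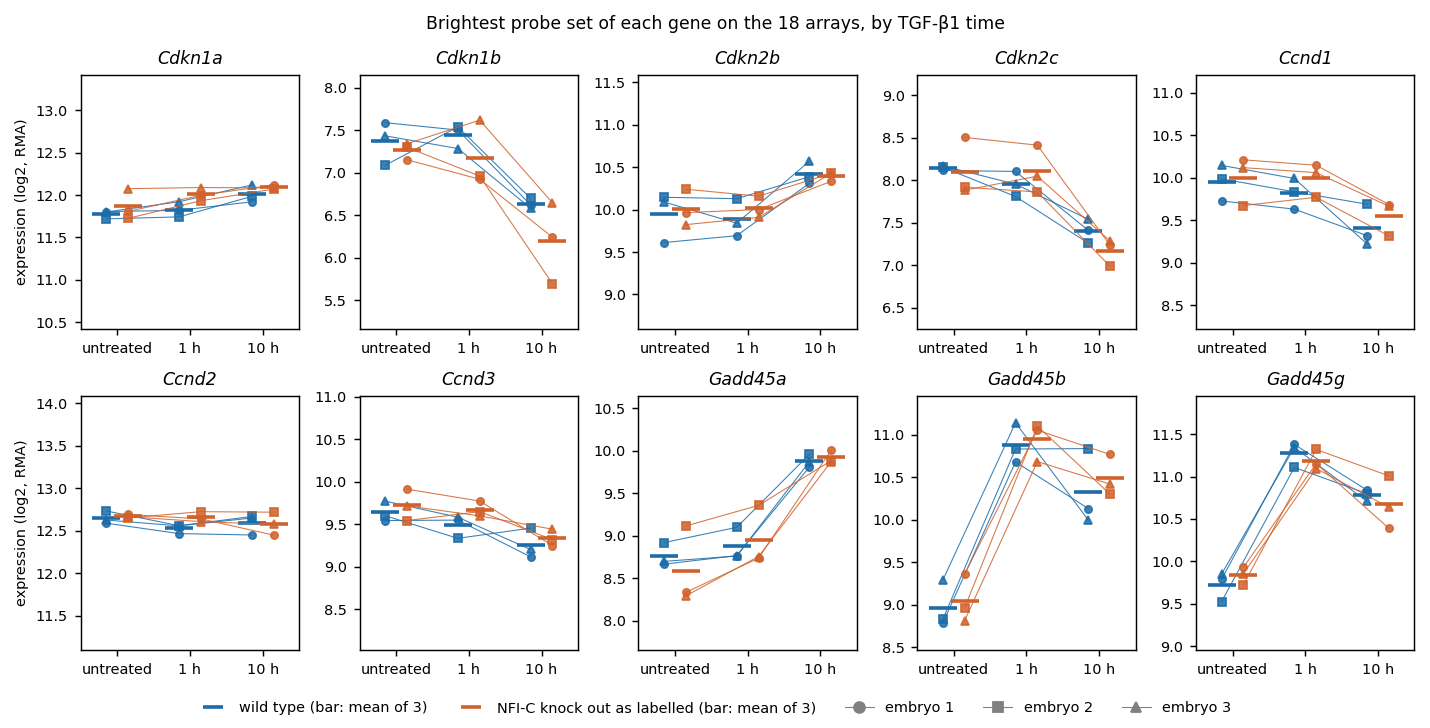
Log2 expression (RMA, vertical axis, the same span in every panel) of the brightest probe set of each of the 10 genes in untreated cells and after 1 h and 10 h of TGF-β1; points are arrays, lines join the arrays of an embryo and bars are the means of 3. Gadd45b and Gadd45g were highest at 1 h and Gadd45a at 10 h. Cdkn1b and Cdkn2c were lowest at 10 h, and Ccnd2 stayed between 12.45 and 12.73.

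At 10 h the members moved in both directions. In wild-type cells Cdkn2b and the 3 Gadd45 genes rose, Cdkn1b, Cdkn2c, Ccnd1 and Ccnd3 fell, and Cdkn1a and Ccnd2 did not pass. In labelled knock-out cells the 3 Gadd45 genes rose, Cdkn1b, Cdkn2c and Ccnd3 fell, and Cdkn1a, Cdkn2b, Ccnd1 and Ccnd2 did not pass. Of all tested genes 14.9% were higher and 18.8% lower at 10 h in wild-type cells, against 4 and 4 of the 10 members. In labelled knock-out cells these shares were 13.9% and 20.7%, against 3 and 3 members. The median log2 difference of the members was 0.09 in wild-type cells and 0.07 in labelled knock-out cells, beside 0.01 and -0.03 over all tested genes.

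The replicate number marks the same embryo within a genotype, so the arrays are paired by embryo. With the embryo as a block in the fit, 9 of 10 members passed at 10 h in each genotype, 5 higher and 4 lower, while the share of all genes that passed was 40.1% in wild-type cells and 40.3% in labelled knock-out cells. The calls gained with the paired fit were Cdkn1a in both genotypes and Cdkn2b and Ccnd1 in labelled knock-out cells. Without wild-type embryo 3 the unpaired count fell from 8 to 4 in wild-type cells and without wild-type embryo 1 to 5. With only the groups compared in the fit it was 6. The wild-type 10 h arrays of embryos 2 and 3 did not share their embryo's deviations (correlation with the untreated array -0.06 and -0.20), and with these 2 arrays left out, a choice made after seeing the data, the count was 5.

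Among the CDK inhibitors, Cdkn2b rose modestly. This INK4 gene is a known TGF-β target in epithelial cells. It was at 9.61, 10.14 and 10.09 in untreated wild-type embryos, 9.69, 10.13 and 9.84 at 1 h and 10.31, 10.39 and 10.57 at 10 h. The labelled knock-out arrays read 9.96, 10.24 and 9.82, then 10.00, 10.16 and 9.91, then 10.33, 10.43 and 10.43. The 10 h arrays lay above all others in both genotypes, but the embryos drew together at 10 h from an untreated spread that was about as wide as the rise. The 10 h difference was 0.47 ± 0.15 in wild-type cells, 1.39-fold (limma adjusted p = 0.0215), and 0.39 ± 0.15 in labelled knock-out cells (0.0537, and 0.0123 with the embryo block). The wild-type call was lost without embryo 1 (0.0896) and without embryo 3 (0.091). It was also lost with only the groups compared in the fit.

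Cdkn2c, the second INK4 gene of the set, moved the other way. It was at 8.12, 8.15 and 8.17 in untreated wild-type embryos, 8.10, 7.81 and 7.96 at 1 h, and 7.41, 7.26 and 7.54 at 10 h. In labelled knock-out embryos it was at 8.51, 7.92 and 7.88 untreated, 8.41, 7.86 and 8.05 at 1 h, and 7.23, 6.99 and 7.28 at 10 h. The 10 h arrays lay below all others of their genotype. It fell by 0.74 on the log2 scale in wild-type cells (SE 0.16, 1.67-fold, limma adjusted p = 0.0023) and by 0.93 in labelled knock-out cells (SE 0.16, 1.91-fold, 0.000346). Both calls were kept under all alternatives tried.

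Cdkn1b fell as well. This inhibitor is known to accumulate in cells that leave the cycle and to be controlled largely by protein turnover, which an array does not measure. Wild-type embryos were at 7.59, 7.09 and 7.44 untreated, 7.50, 7.54 and 7.29 at 1 h, and 6.62, 6.70 and 6.58 at 10 h. Labelled knock-out embryos were at 7.15, 7.30 and 7.34, then 6.92, 6.96 and 7.62, then 6.24, 5.70 and 6.65. The 10 h arrays lay below all others of the same genotype, with embryo 2 of the labelled knock-out the lowest. The 10 h difference was -0.74 ± 0.21 in wild-type cells (1.67-fold lower, limma adjusted p = 0.0132) and -1.07 ± 0.21 in labelled knock-out cells (2.10-fold lower, 0.000966). The wild-type call was lost without embryo 1 (0.119) and without embryo 3 (0.0992). Averaged with the Cdkn1b probe set that lay below the filter, the differences were -0.34 and -0.61 and still passed.

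Cdkn1a, the p53 target p21, changed little on its brightest probe set. It was at 11.80, 11.72 and 11.80 in untreated wild-type embryos, 11.82, 11.74 and 11.92 at 1 h, and 11.92, 11.98 and 12.12 at 10 h. In labelled knock-out embryos it was at 11.81, 11.73 and 12.07, then 12.00, 11.93 and 12.09, then 12.12, 12.07 and 12.08. Wild-type arrays at 10 h lay above the untreated ones, whereas labelled knock-out embryo 3 was as high untreated as at 10 h. The difference of 0.23 ± 0.09 in wild-type cells did not pass (limma adjusted p = 0.0641, and 0.0392 with the embryo block). Nor did the 0.22 ± 0.09 in labelled knock-out cells (0.0768, and 0.0476 with the embryo block).

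Of the D cyclins, Ccnd3 was lower at 10 h on its brightest probe set in both genotypes and Ccnd2 did not pass. Ccnd1 was lower in wild-type cells, while its fall in labelled knock-out cells passed only in some fits. Ccnd1, the D cyclin that growth factors and adhesion control in fibroblasts, was at 9.73, 9.99 and 10.15 in untreated wild-type embryos, 9.63, 9.83 and 9.99 at 1 h, and 9.32, 9.69 and 9.22 at 10 h. Labelled knock-out embryos were at 10.21, 9.67 and 10.12, then 10.15, 9.77 and 10.06, then 9.69, 9.31 and 9.66. All wild-type 10 h arrays lay below the untreated ones, and in labelled knock-out cells the groups overlapped because untreated embryo 2 was low, although each embryo fell (by 0.53, 0.36 and 0.46). The 10 h difference was -0.54 ± 0.17 in wild-type cells (limma adjusted p = 0.0222) and -0.45 ± 0.17 in labelled knock-out cells (0.0543, and 0.00677 with the embryo block). Without wild-type embryo 3 the wild-type difference was -0.35 and did not pass (0.235).

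Ccnd3 was at 9.54, 9.60 and 9.77 in untreated wild-type embryos, 9.55, 9.33 and 9.58 at 1 h, and 9.11, 9.45 and 9.20 at 10 h. In labelled knock-out embryos it was at 9.91, 9.54 and 9.72, then 9.77, 9.65 and 9.60, then 9.25, 9.32 and 9.44. The 10 h arrays lay below the untreated ones in both genotypes. The 10 h difference was -0.38 ± 0.12 in wild-type cells (limma adjusted p = 0.0178) and -0.39 ± 0.12 in labelled knock-out cells (0.0155). It did not pass without wild-type embryo 1 (0.0885) or 3 (0.175), and without labelled knock-out embryo 1 it was -0.25 (0.217). The wild-type call was also lost with only the groups compared in the fit. Both calls were lost with the mean of all Ccnd3 probe sets (-0.10 and -0.05), since a dimmer probe set had the opposite sign.

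Ccnd2 had the narrowest range of the 3 D cyclins. Its brightest probe set was at 12.59, 12.73 and 12.63 in untreated wild-type embryos, 12.47, 12.56 and 12.56 at 1 h, and 12.45, 12.67 and 12.65 at 10 h. The values in labelled knock-out cells were 12.69, 12.65 and 12.67, then 12.64, 12.73 and 12.61, then 12.45, 12.72 and 12.57. The conditions overlapped. The 10 h difference was -0.06 in wild-type cells, with a 95% interval from -0.24 to 0.12, and -0.09 in labelled knock-out cells, with an interval from -0.27 to 0.09 (limma adjusted p = 0.613 and 0.465).

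**Figure D2:**
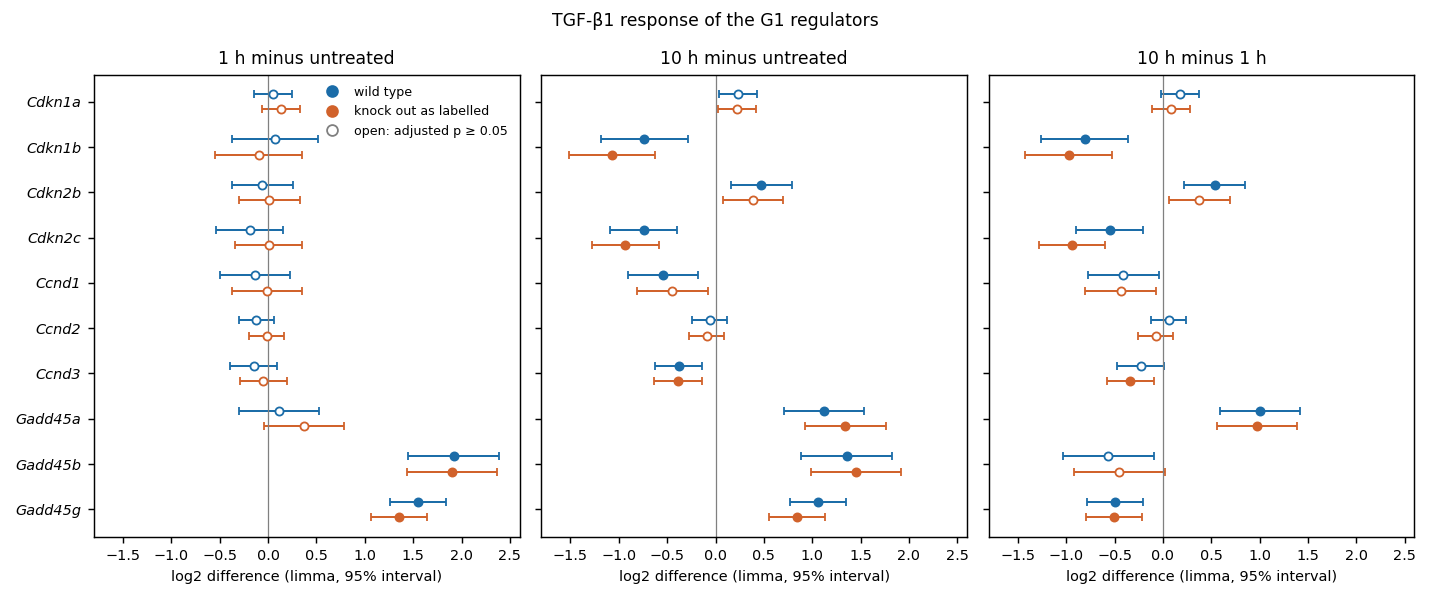
Log2 differences with 95% intervals (limma, horizontal axis) for 1 h minus untreated, 10 h minus untreated and 10 h minus 1 h in each gene; blue is wild type, orange is labelled knock out, and open points have an adjusted p of 0.05 or more. At 1 h only Gadd45b and Gadd45g have filled points, and at 10 h filled points lie on both sides of 0.

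The other probe sets of a gene check its brightest one, and they were adjusted over all 24691 tested probe sets with a single symbol. Of these 0.486% passed at 1 h in wild-type cells and 0.421% in labelled knock-out cells, and 28.1% and 28.6% at 10 h. The second Cdkn1a probe set, 1421679_a_at, rose by 0.46 ± 0.14 at 10 h in wild-type cells (limma adjusted p = 0.0211), and differed by 0.30 in labelled knock-out cells (0.125). Ccnd1 probe set 1417420_at fell in both genotypes, by 0.64 (0.00388) and 0.55 (0.0106), while 1417419_at differed by -0.40 and -0.39 and did not pass (0.181 and 0.199). None of the 7 Ccnd2 probe sets passed at 10 h. The 6 others lay between -0.45 and -0.09 in wild-type cells and between -0.25 and 0.31 in labelled knock-out cells. At 1 h in wild-type cells all 7 lay between -0.48 and -0.03, and none passed.

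The probe sets of Ccnd3 and Gadd45b disagreed in part. Ccnd3 probe set 1444323_at differed by 0.15 and 0.13 at 10 h (limma adjusted p = 0.316 and 0.376), opposite in sign to the brightest. Averaging all Ccnd3 probe sets therefore left a 10 h difference of -0.10 (wild type) and -0.05 (labelled knock out), which did not pass. Gadd45b probe set 1449773_s_at rose by 2.27 ± 0.22 at 1 h in wild-type cells (3.32e-05) and by 1.98 in labelled knock-out cells (0.000165), and by 1.35 (0.000289) and 1.18 (0.000753) at 10 h. The dim Gadd45b probe set 1420197_at differed by 0.50 and 0.36 at 1 h and did not pass (0.508 and 1.00). Probe sets 1419497_at of Cdkn1b and 1438805_at of Ccnd3 stayed between 3.22 and 3.82, were above the filter on 0 arrays and were not tested.

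**Figure D3:**
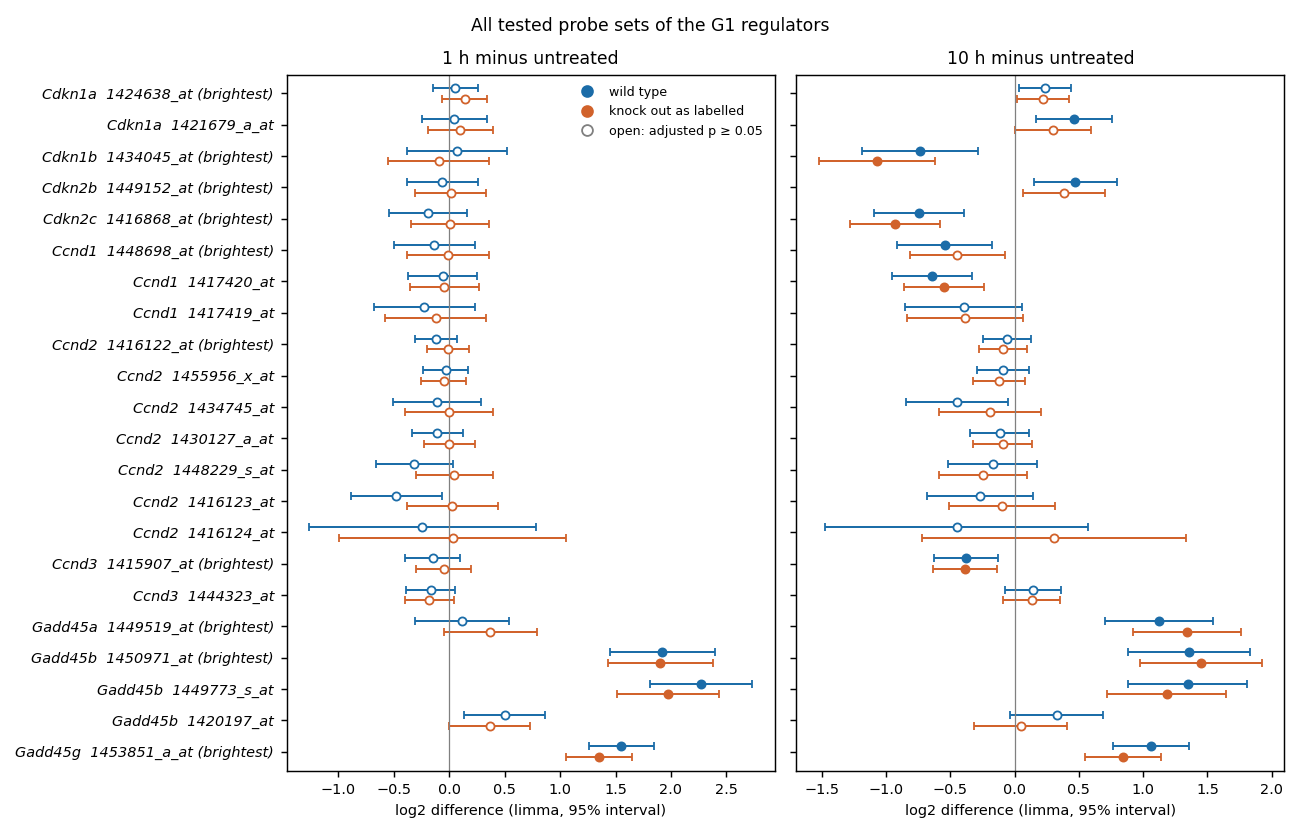
Log2 differences with 95% intervals (limma, horizontal axis) of the 22 tested probe sets at 1 h and 10 h against untreated cells; colours and open points as in the plot of responses. The Gadd45b and Ccnd1 probe sets lie on the same side of 0 within each gene, while the 2 tested Ccnd3 probe sets lie on opposite sides at 10 h.

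Set directly against 1 h, the 10 h cells had lower Gadd45g, Cdkn1b and Cdkn2c and higher Gadd45a in both genotypes, higher Cdkn2b in wild-type cells and lower Ccnd3 in labelled knock-out cells. Gadd45a was higher by 1.01 ± 0.20 in wild-type (limma adjusted p = 0.000985) and 0.97 ± 0.20 in labelled knock-out cells (0.00122). Gadd45g fell by 0.49 (0.0109) and by 0.51 (0.00887), so its early rise had partly receded. Gadd45b differed by -0.56 ± 0.22 (0.0613, and 0.0354 with the embryo block) and -0.45 ± 0.22 (0.132). Cdkn1b fell by 0.81 (0.00779) and by 0.97 (0.00212), and Cdkn2c by 0.55 (0.0157) and by 0.94 (0.00036). Cdkn2b was higher by 0.53 in wild-type cells (0.0112) and by 0.37 in labelled knock-out cells (0.0638, and 0.0156 with the embryo block), and Ccnd3 fell by 0.34 in labelled knock-out cells (0.0337).

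Other probe sets added to this, among 24691 of which 28% passed in wild-type cells and 27.7% in labelled knock-out cells. Gadd45b probe set 1449773_s_at fell in both, by 0.93 (limma adjusted p = 0.0049) and by 0.79 (0.0128), and Ccnd1 probe set 1417420_at by 0.58 (0.00758) and by 0.50 (0.0179). Cdkn1a probe set 1421679_a_at rose by 0.42 in wild-type cells (0.0347). Ccnd3 probe set 1444323_at rose by 0.31 in wild-type (0.033) and by 0.31 in labelled knock-out cells (0.0339), against the fall of the brightest Ccnd3 probe set, so the direction of Ccnd3 between 1 h and 10 h depends on the probe set.

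In this comparison 2 members were higher and 3 lower in wild-type cells, where 15.3% of all genes were higher and 18% lower. In labelled knock-out cells 1 was higher and 4 lower, beside 13.7% and 19.7% of all genes. With the embryo block 7 members passed in each genotype, 2 higher and 5 lower, beside 38.8% and 38.7% of all genes. The added calls were Ccnd1 in both genotypes (-0.41, 0.0117 and -0.44, 0.008, limma adjusted p), Gadd45b in wild-type and Cdkn2b in labelled knock-out cells. The wild-type count was 2 without embryo 1 and 2 without embryo 3, and the labelled knock-out count 3 without embryo 1 and 3 without embryo 3. Calls were lost in wild-type cells for Cdkn2c without any 1 of the 3 embryos, for Gadd45g without embryo 1 or 3, for Cdkn1b without embryo 1 and for Cdkn2b without embryo 3. In labelled knock-out cells they were lost for Ccnd3 without any 1 of the 3 embryos and for Gadd45g without embryo 1 or 3. That Gadd45g call was also lost with only the groups compared in the fit.

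Between the genotypes, none of the 10 genes passed in untreated cells, at 1 h or at 10 h, and 0% of all 13679 genes did. At an unadjusted p under 0.05, 460, 846 and 721 genes but 0 members differed on their brightest probe set. The differences, labelled knock-out minus wild type, lay between -0.18 and 0.11 untreated, between -0.27 and 0.18 at 1 h, and between -0.44 and 0.17 at 10 h. The widest was Cdkn1b at 10 h, -0.44 ± 0.21 with a 95% interval from -0.89 to 0.01 (unadjusted p = 0.0538 and adjusted p = 0.925 in limma). That difference was -0.19 without labelled knock-out embryo 2, the lowest Cdkn1b array. With 1 value per embryo the members lay between -0.27 and 0.12, and again 0 members and 0% of genes passed (659 genes and 0 members at an unadjusted p under 0.05).

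Of the 12 other tested probe sets of the members, 0 passed between the genotypes in any condition, and neither did any of all 24691 (0%). At an unadjusted limma p under 0.05 there were 2, both of Ccnd2 at 1 h and both higher in labelled knock-out cells without overlap of the groups. Probe set 1448229_s_at differed by 0.49 ± 0.16 (limma adjusted p = 0.733) and 1416123_at by 0.55 ± 0.19 (0.737), while the brightest Ccnd2 probe set differed by 0.13.

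The response to TGF-β1 was also compared between the genotypes, as an interaction. For Gadd45b at 1 h the labelled knock-out response minus the wild-type response was -0.02 ± 0.31, with a 95% interval from -0.68 to 0.65, and for Gadd45g -0.20 with an interval from -0.61 to 0.21. For Cdkn1b at 10 h it was -0.33 ± 0.30, with an interval from -0.97 to 0.30. No member and 0% of genes passed at either time, while 233 genes at 1 h and 305 at 10 h, but 0 members, had an unadjusted limma p under 0.05. The calls that were made in only one genotype at 10 h, Cdkn2b and Ccnd1, had interactions of -0.09 (interval -0.53 to 0.36) and 0.10 (interval -0.42 to 0.61).

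**Figure D4:**
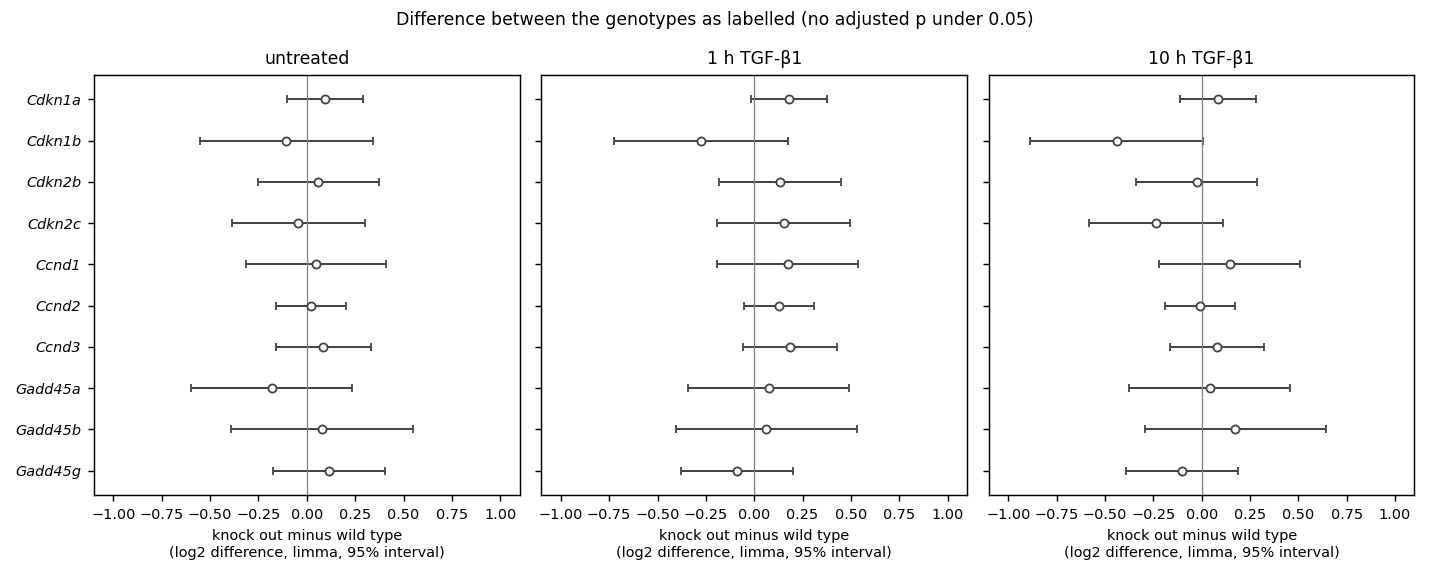
Labelled knock out minus wild type on the log2 scale with 95% intervals (limma, horizontal axis) for each gene in untreated cells and after 1 h and 10 h of TGF-β1. All intervals drawn include 0, and the Cdkn1b interval at 10 h reaches down to -0.89.

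Among 24 other G1 control genes, 0 passed at 1 h in either genotype, and at 10 h 3 rose and 7 fell in wild-type cells and 5 rose and 7 fell in labelled knock-out cells. Over all genes the shares at 10 h were 14.9% higher and 18.8% lower, and 13.9% and 20.7%. Myc, which drives growth and entry into the cycle, rose by 1.04 ± 0.21 (limma adjusted p = 0.00147) and 1.14 ± 0.21 (0.000674). Cdc25a, the phosphatase that activates CDK2, rose by 0.56 (0.000518) and 0.49 (0.00142). Cables1, a CDK-binding protein, rose by 0.81 (0.000288) and 0.63 (0.00193). Tfdp2, a partner of E2F factors, fell by 0.65 (0.000149) and by 0.98 (3.02e-06). The median of the list was -0.10 and -0.07, beside 0.01 and -0.03 over all genes.

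Of 14 tested S-phase genes under E2F control, 9 fell at 10 h in wild-type cells and 11 in labelled knock-out cells, beside 18.8% and 20.7% of all genes. None rose, 0 passed at 1 h, and 5 and 3 did not pass at 10 h. The medians at 10 h were -0.63 and -0.77, beside 0.01 and -0.03 over all genes. Mcm7, a subunit of the replicative helicase, fell by 0.83 (limma adjusted p = 3.51e-05) and by 1.11 (2.2e-06). Ccna2, the S-phase cyclin A2, fell by 0.86 (0.000594) and by 0.99 (0.000169). Rrm1, the large subunit of ribonucleotide reductase, fell by 0.72 (0.000274) and by 0.51 (0.00376), and thymidine kinase Tk1 by 1.31 (0.00095) and by 1.73 (7.86e-05).

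**Figure D5:**
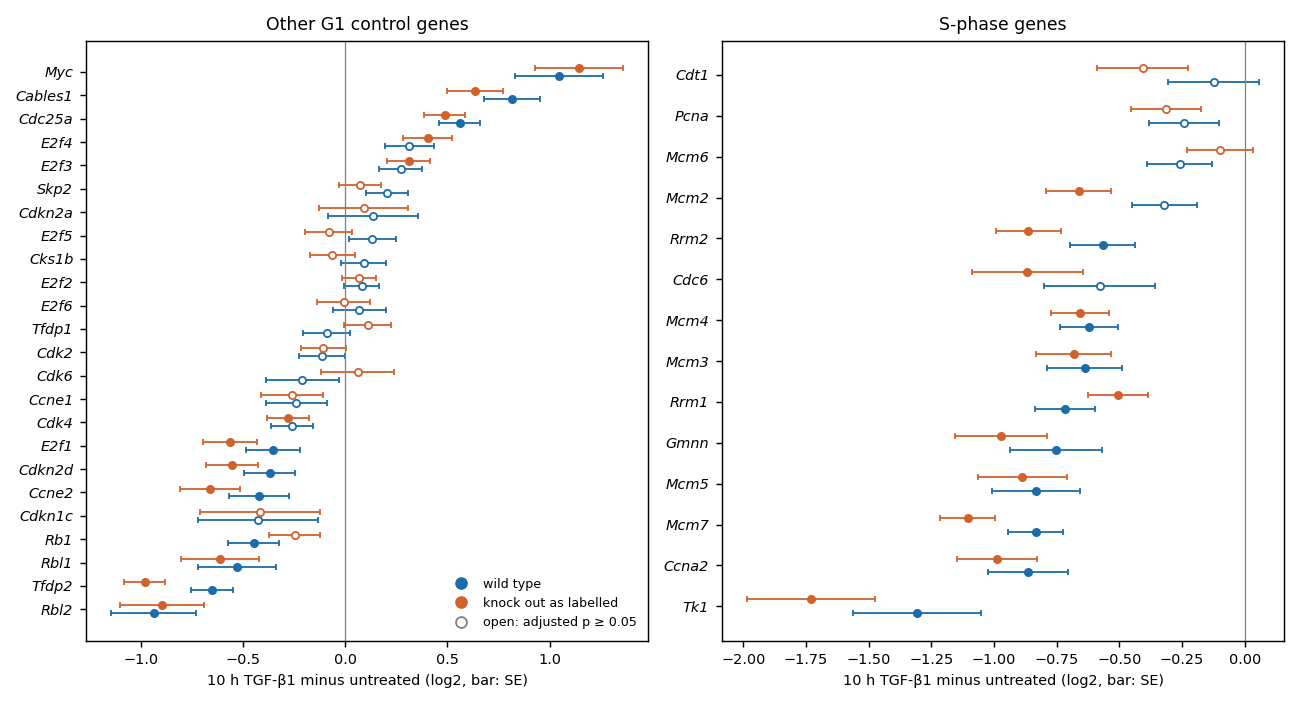
Log2 difference of 10 h TGF-β1 minus untreated (horizontal axis, bars are SE) for 24 other G1 control genes on the left and 14 S-phase genes on the right; blue is wild type, orange is labelled knock out, and open points have an adjusted p of 0.05 or more. The G1 genes lie on both sides of 0, with Myc the highest in both genotypes, and the S-phase genes lie below it.

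Genes of the p53 pathway, to which Cdkn1a and Gadd45a also belong, moved in both directions. Of 19 tested, 5 rose and 5 fell at 10 h in wild-type cells and 6 rose and 5 fell in labelled knock-out cells, and 0 passed at 1 h. Over all genes 14.9% rose and 18.8% fell at 10 h in wild-type cells and 13.9% and 20.7% in labelled knock-out cells. The counts among 19 genes are not far from these shares and are not read as a result about the pathway. The genes named next have the smallest adjusted p and do not show the balance of rises and falls. Plk3, a stress-responsive polo-like kinase, rose by 1.87 (limma adjusted p = 1.27e-06) and 1.92 (9.05e-07). Trp53inp1, a p53-induced nuclear protein, fell by 1.20 (8.14e-06) and by 1.47 (1.01e-06), and Sesn1, a stress-induced regulator of TOR signalling, by 1.39 (0.000269) and by 1.73 (3.46e-05). The death receptor gene Fas fell by 1.18 (0.000255) and by 0.73 (0.00807), and Ddb2, a DNA repair gene, by 0.71 (0.00126) and by 0.90 (0.000169).

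Of 10 tested kinases that Gadd45 proteins act on or through, 0 passed at 1 h. At 10 h 2 rose and 1 fell in wild-type cells, and 3 rose and 2 fell in labelled knock-out cells. Over all genes 14.9% were higher and 18.8% lower in wild-type cells, and 13.9% and 20.7% in labelled knock-out cells. The counts among 10 genes are near these shares and are not read as a result about the kinases. Map2k3, a kinase that activates p38, rose by 0.66 (limma adjusted p = 0.000601) and 0.83 (7.1e-05), while Map2k6, which also activates p38, fell by 0.92 (0.00188) and by 1.06 (0.000572). Map3k4, the direct Gadd45 partner MTK1, fell by 0.57 in labelled knock-out cells (0.0341). It was not called lower in wild-type cells, where only Map2k6 was. None of the 10 kinases passed as an interaction at 10 h, so no difference between the genotypes is read from this.

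Early TGF-β targets served to check the treatment. Of 7 tested, 4 rose and 3 did not pass at 1 h in each genotype. Of all genes 0.504% were higher at 1 h in wild-type cells and 0.417% in labelled knock-out cells. Smad7, the feedback inhibitor of the pathway, rose by 1.88 (limma adjusted p = 6.54e-08) and 1.71 (1.34e-07), Klf10 by 2.09 (4.08e-07) and 1.81 (2.7e-06), Skil by 1.16 (0.000266) and 1.03 (0.00106), and Ccn2 by 1.05 (0.000618) and 0.84 (0.00517). At 10 h 5 rose and 1 fell in wild-type cells and 6 rose and 1 fell in labelled knock-out cells. The shares of all genes at 10 h were 14.9% higher and 18.8% lower, and 13.9% and 20.7%. No gene of the 5 lists passed between the genotypes or as an interaction.

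The genes whose pattern over the 18 arrays was most like that of a member are given as a description, since the points share arrays, embryos and normalisation. Gadd45b was nearest to Ier5 (Pearson r = 0.965), Csrnp1 (0.946) and Snai1 (0.944), and Gadd45g to Smad7 (0.963), Ier5 (0.959) and Rasl11b (0.942). Gadd45a was nearest to Acbd3 (0.97), Plk3 (0.966) and Ankrd1 (0.966). Cdkn2c was nearest to Tmpo (0.972), Topbp1 (0.959) and Birc5 (0.956), and Cdkn1b to Atpif1 (0.977), Rpl22l1 (0.967) and Naa38 (0.955). For Cdkn2b the nearest were Ube2k (0.951), Fbxo28 (0.946) and Tmem97 (0.942), for Ccnd1 Usp11 (0.933), Sdc1 (0.929) and Adgrg2 (0.923), and for Ccnd3 Anapc2 (0.929), Ctf1 (0.929) and Ehmt2 (0.92). Among the members, Gadd45b and Gadd45g were the closest pair (0.924), Ccnd1 and Ccnd3 went together (0.867), as did Cdkn2b and Gadd45a (0.857), and Cdkn2c ran against Gadd45a (-0.895).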

How the data were processed

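The authors deposited log2 expression values, 1 per Affymetrix probe set and array, and RMA is the tool named per the submitters' processing notes, with its version not given in the sources used here. Of 45101 probe sets 34958 had a single gene symbol, 932 several and 9211 none in the array annotation. For each gene the brightest single-symbol probe set was kept, and it was tested if at least 3 arrays had it above their 40th percentile (4.16 to 4.25). Group means were fitted with limma 3.58.1 in R 4.3.3 over all 18 arrays (12 residual degrees of freedom), with two-sided p-values adjusted by Benjamini-Hochberg at 0.05. Replicates are separate embryos, and same-numbered arrays of a genotype share an embryo per the labels. Their deviations correlated at 0.592 to 0.763 between untreated and 1 h arrays. No scan date or other batch was used here. The fitting code was tested on simulated data. The genes, lists and tests were chosen with earlier results of these data known. The lists named here are other G1, p53-pathway, Gadd45-partner, S-phase and early TGF-β genes and cell type markers. The genes named are all members, up to 4 of each list per comparison by adjusted p, and the 3 nearest patterns per member that passed.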

Additional observations from a re-analysis of the deposited data

How the results depend on the processing

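Each of the 120 values of the 10 genes over 12 comparisons was recomputed under up to 18 other settings. Planned ones were embryo as a fixed or random replicate block, other filters, the mean of all probe sets, other variance priors and renormalised arrays. Fits with only the groups compared and with each embryo left out were planned too. Leaving out wild-type 10 h arrays 2 and 3 was added after seeing the data and is included in the counts that follow. Of 2000 such values 1854 kept direction and side of the threshold, 32 lost a call, 36 gained one, 77 without a call changed sign and 1 reversed: Ccnd3 at 10 h against 1 h in labelled knock-out cells, 0.04 with the mean of all probe sets, which includes a dim probe set and one of opposite sign. The 1854 include values without a call in the main fit that stayed uncalled, such as those between the genotypes. Their share of the 2000 is therefore no measure of how stable the calls were. Gadd45b and Gadd45g at 1 h, and Gadd45a, Gadd45b, Gadd45g and Cdkn2c at 10 h, kept their calls in both genotypes under all alternatives run, as did Cdkn1b at 10 h in labelled knock-out cells. With 1 embryo left out, the count of members called ran from 4 to 9 at 10 h in wild-type cells, from 2 to 6 at 10 h against 1 h in wild-type cells, and from 3 to 6 at 10 h against 1 h in labelled knock-out cells. With wild-type 10 h arrays 2 and 3 left out, chosen after seeing the data, it was 5 at 10 h and 1 at 10 h against 1 h, from fewer arrays, with the lone array taken to vary like the others. The paired fits changed no calls beyond those given beside the results, and the random block (consensus correlation 0.183) gave the same counts. The labels tie same-numbered embryos of the genotypes to nothing shared, but their deviations correlated at 0.073 to 0.541 untreated, 0.104 to 0.487 at 1 h and -0.198 to 0.135 at 10 h; blocking the genotypes by number gave 0 calls. With 3 embryos a group, the interval of a difference between groups, before adjustment, had a median width of 0.27 log2 units on each side. For an interaction it was 0.38. Differences smaller than this were typically not detectable. The adjusted p is stricter, so larger differences could be missed too. Gadd45a at 1 h in labelled knock-out cells (0.37) and Cdkn1b between the genotypes at 10 h (-0.44) did not pass. Dim probe sets give no measure of a change.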
